A study of Gallus gallus with 6 samples.

Results

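In the chicken embryo the lung starts as a pair of buds that lengthen into primary bronchi, from whose epithelium the secondary bronchi grow out into the surrounding mesenchyme. The mesenchyme signals to the epithelium, part of it turns into airway smooth muscle, and its matrix is laid down and cleared as the branches extend. A transcript level in such a tissue is set both by how many cells of each type it holds and by how much of the RNA each cell carries.

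The genes described here are those whose transcripts were less abundant at embryonic day 6 (E6) than at embryonic day 5 (E5) in each of 2 pairs of whole-lung libraries, and they are called the falling genes below. They were chosen by their values and not by a test. Levels are given in CPM, a gene's count scaled to its library's total. A gene had to reach a mean of 5 CPM over the 4 libraries of replicates 2 and 3. Its log2 ratio of E6 to E5, with 1 CPM added to both levels, had to be -0.4 or lower both in replicate 2 (pair 2) and in replicate 3 (pair 3). A ratio of -0.4 is a 1.32-fold lower level at E6 once 1 CPM is added to both. This rule found 72 genes among the 9796 that reached the minimum level, which is 0.735% of them, out of 17108 identifiers counted.

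The study compared wildtype White Leghorn embryos at E5 and E6, untreated as far as the labels say, with 3 libraries a stage. Each library was prepared from RNA pooled from 6 lungs, so the differences between embryos of a pool cannot be seen. The series title places the comparison in the remodelling of extracellular matrix during airway branching. In these whole lungs, fewer cells of a type and less RNA per cell cannot be told apart. The files give Ensembl identifiers without gene names, and none of the identifiers could be matched to a name with the reference used here. The falling genes are therefore described by their levels and their number, 2 of them are named by identifier, and neither their roles nor markers of the lung's cell types were analysed here.

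The libraries of replicates 2 and 3 held between 10059547 and 12993894 counts. The replicate 1 libraries held 585803 counts at E5 and 509443 at E6, and stood apart. The Pearson correlation of log2(CPM + 1) across all identifiers was 0.992 or higher between any of these 4 libraries. It was between 0.432 and 0.526 for a replicate 1 library with any of the 4, and 0.892 between the replicate 1 libraries. The rule leaves replicate 1 out, and its values are given separately below.

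**Figure D1:**
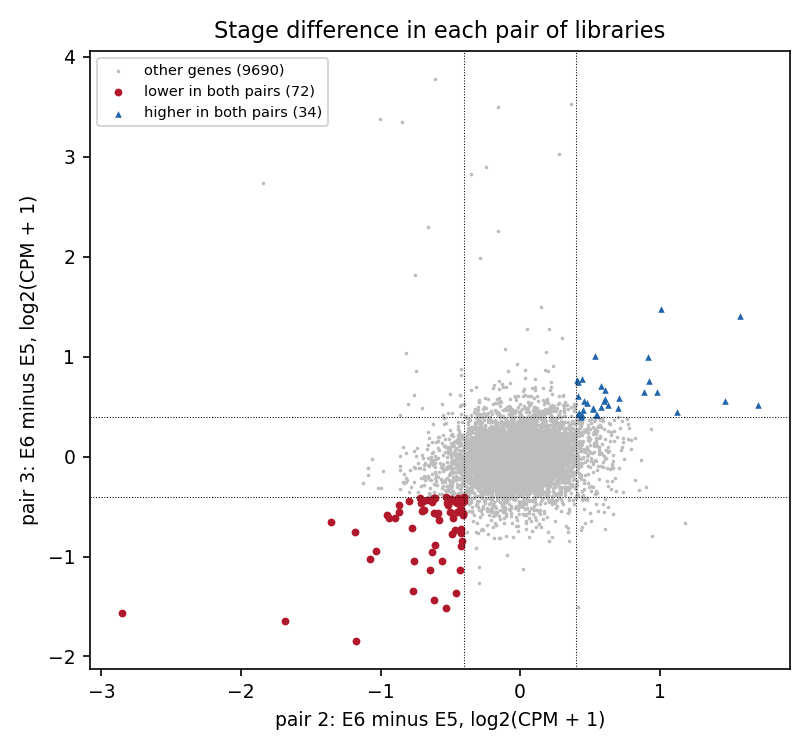
Stage difference (E6 minus E5, log2 of CPM + 1) in pair 2 on the horizontal axis and in pair 3 on the vertical axis, 1 point per gene at a mean of 5 CPM or more. Dotted lines mark -0.4 and 0.4. The 72 falling genes fill the lower left corner by their definition, the 34 genes at or above 0.4 in both pairs lie at the upper right, and most genes lie between the lines.

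A fall of this size in 1 pair was more common than in both. In pair 2, 433 genes (4.42% of the 9796) were at -0.4 or lower, and in pair 3, 340 genes (3.47%). The 72 falling genes were 16.6% of the first list and 21.2% of the second. In the other direction 295 genes stood at 0.4 or higher in pair 2 and 278 in pair 3, and 34 did so in both, 11.5% and 12.2% of those lists. Genes at or past these values with opposite signs were 24 (lower in pair 2 and higher in pair 3) and 23 (the reverse). The pairs thus moved together by this measure in 106 genes and apart in 47.

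Among the falling genes, ENSGALG00000022295.2 had the most negative value in whichever of its pairs fell less. At E5 it was counted 356 and 310 times in replicates 2 and 3, or 27.4 and 28.6 CPM, and at E6 it was counted 82 and 85 times, or 7.85 and 8.45 CPM. Both E5 pools were over 3 times as high as both E6 pools, and within a stage the pools lay close together. The mean level was 28.0 ± 0.820 CPM (SD, n = 2) for E5 and 8.15 ± 0.426 CPM (SD, n = 2) for E6, with log2 ratios of -1.68 in pair 2 and -1.65 in pair 3. Counting error alone gives a 95% interval for the ratio taken without the added 1 CPM. It ran from -2.17 to -1.45 in pair 2 and from -2.12 to -1.41 in pair 3 on the log2 scale.

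The most abundant falling gene was ENSGALG00000012394.4. Its E5 levels were 122 and 132 CPM in replicates 2 and 3, and its E6 levels were 89.1 and 96.1 CPM. Its stages did not overlap, and its fall was near the threshold. The mean level was 127 ± 6.87 CPM (SD, n = 2) for E5 and 92.6 ± 4.97 CPM (SD, n = 2) for E6, 1.37-fold lower at E6 in either pair. Its log2 ratio was -0.45 in both pairs, with a counting interval of -0.58 to -0.34 in each.

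Most of the falls were small. The median log2 ratio of the 72 genes was -0.59 in pair 2 and -0.56 in pair 3, against -0.02 and -0.01 over all 9796 genes. The rule asked for -0.4 or lower in both pairs, so nothing is read from this contrast. The pair that fell less had a value between -0.5 and -0.4 in 44 of the 72 and a lower one in 28. A log2 ratio of -1 or lower was seen in both pairs for 4 genes and in 1 pair only for 11. As 1 CPM is added to both levels, this asks for more than a halving of the CPM itself. One of the 4 went from 13.9 to 1.05 CPM in pair 2 and from 10.2 to 2.78 CPM in pair 3, with log2 ratios of -2.86 and -1.57. Another went from 20.1 to 8.33 CPM and from 24.7 to 6.16 CPM, with ratios of -1.18 and -1.84. In both of these genes every E5 pool was above every E6 pool, but the size of the fall differed between pairs.

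**Figure D2:**
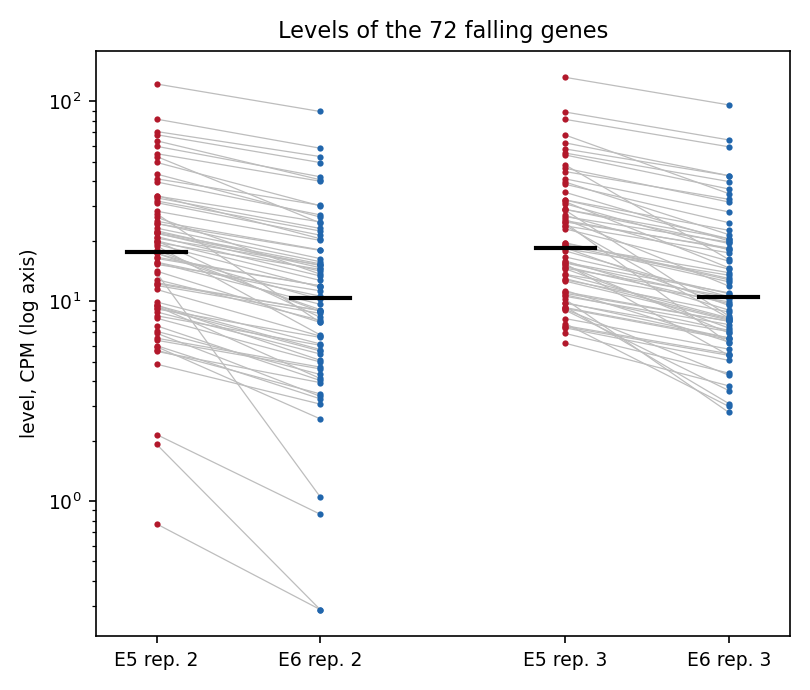
Level in CPM, on a log axis, of each of the 72 falling genes (points) at E5 (red) and E6 (blue) in replicate 2 and replicate 3, with lines joining a gene's stages within a replicate number and black bars at the medians. The medians were 17.7 and 10.4 CPM in replicate 2 and 18.4 and 10.5 CPM in replicate 3; 3 genes stood well below the rest at E5 in replicate 2.

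The size of the fall could be compared between the pairs. The ratios of a gene's pairs lay within 0.1 of each other on the log2 scale for 25 of the 72, the median gap was 0.18, and 8 genes had a gap over 0.5. The fall was larger in pair 2 for 37 genes and in pair 3 for 35. Summed over the 72 genes, the level was 1690 and 1848 CPM at E5 and 1098 and 1166 CPM at E6 in replicates 2 and 3. These genes took 0.169% and 0.185% of the counts at E5 and 0.110% and 0.117% at E6. The rule chose the genes by these values in both pairs. The gaps and sums therefore describe the list and are no test of how well the pairs agree.

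At the threshold, the 4 falling genes nearest to it had -0.401, -0.405, -0.406 and -0.407 in the pair that fell less. Of the 4 genes just outside, 3 had -0.398, -0.394 and -0.392, and the other lay nearer still. Nothing in the values separates the genes on either side. With the threshold at -0.3 the rule found 162 genes, and at -0.5 it found 28.

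The falling genes were less abundant than the other genes measured. Their mean level over the 4 libraries ranged from 5.09 to 110 CPM with a median of 14.1, against a median of 46.0 over all 9796 genes. Of the 72, 49 (68.1%) had a mean under 20 CPM, where 26.2% of all genes lay. Of the 1147 genes between 5 and 10 CPM, 23 (2.01%) were falling genes, and of the 1424 between 10 and 20 CPM, 26 (1.83%). The share was 0.661% between 20 and 50 CPM (17 genes), 0.244% between 50 and 100 CPM (5 genes) and 0.0384% above 100 CPM (1 gene of 2606).

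Low levels also carried more spread. The SD of the pair 2 ratio over all genes of a class went from 0.34 between 5 and 10 CPM to 0.16 above 100 CPM, and that of pair 3 from 0.40 to 0.13. What part of the falls at low levels comes from this spread was not tested. The counting interval of the E6 to E5 ratio lay wholly below no difference in both pairs for 67 of the 72 genes, in 1 pair for 4 and in neither for 1. The 5 exceptions all had a mean under 10 CPM. These intervals describe values that chose the genes, so they measure depth and are no test of the fall.

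**Figure D3:**
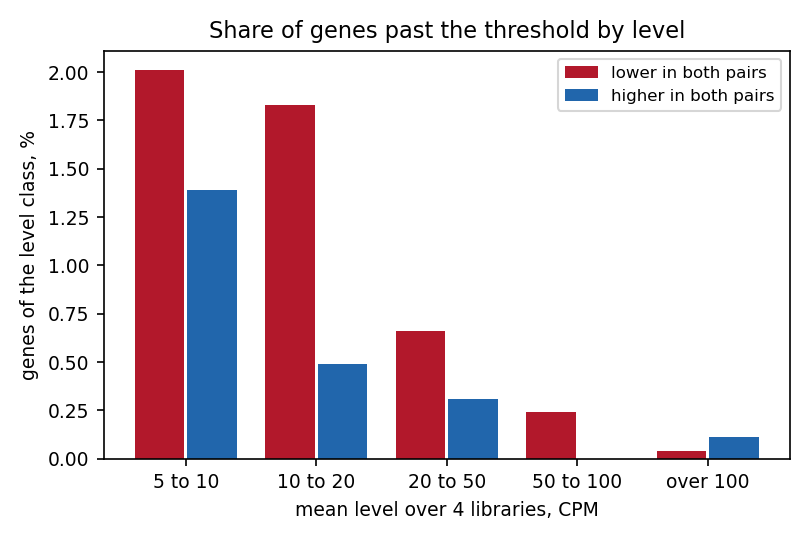
Percent of the genes in each class of mean level (CPM over the 4 libraries of replicates 2 and 3) that were at -0.4 or lower in both pairs (red) or at 0.4 or higher in both (blue). The share of falling genes goes from 2.01% between 5 and 10 CPM to 0.0384% above 100 CPM.

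At 60 of the 72 genes (83.3%) both E6 levels were below both E5 levels. The same held for 15.9% of the 9796 genes. The rule used these levels, so nothing is read from the difference between these shares. At the other 12 genes the stages overlapped, with the E6 level of one replicate number at or above the E5 level of the other. Those 12 had a median difference between replicates 2 and 3 of 1.14 on the log2 scale in either direction, against 0.15 for the 60. A falling gene can overlap only where a replicate number is higher than the other at both stages. This contrast thus follows from the split and is not a result. Of the 12, 10 were higher in replicate 3. Several of these 10 lay below the minimum level on average in replicate 2 and reached it only through replicate 3. Their direction follows from that, so nothing is read from this count.

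The quasi-likelihood test of edgeR over all genes, fitted to the 4 libraries without regard to replicate number, called 0 of 11784 genes between the stages at a Benjamini-Hochberg adjusted p under 0.05. None of the 72 was called, against 0% of all genes called lower. An unadjusted p under 0.05 in this test was reached by 303 of the 11784 genes, 141 of them lower at E6. Of the 72 falling genes, 50 reached it. DESeq2 called 3 falling genes from the same libraries, against 0.0255% of all genes, and limma-voom called 0. With the replicate number as a block, edgeR called 39 of the 72 as lower at E6, against 0.653% of all genes, while DESeq2 with the same block called 5, against 0.0424%. With all 6 libraries and the block edgeR called 9, against 0.120%. The rule used this contrast, so these counts say only which falling genes also passed a test, and both named genes were among the 39.

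The rule did not use the difference between the replicate numbers, replicate 3 against replicate 2, which was fitted with stage as a term. The libraries are those of the rule, and the error of this fit rests on how far the 2 pairs agree. With so few libraries, edgeR also draws on the spread of other genes, as in the stage fit with the replicate block. The rule asked for a fall in both pairs, so this comparison is not independent of it. Each of the 4 libraries is a pool of its own, and the labels do not say what the libraries of a number share. Of the 72 falling genes, 14 (19.4%) passed edgeR's test (adjusted p under 0.05), against 11.2% of the 11784 genes tested and 11.9% of the 9796 at the minimum level. Of these, 11 were higher in replicate 3, against 6.97% of all genes called in that direction, and 3 were lower, against 4.27%. Several of the 11 lay below the minimum level on average in replicate 2 and reached it only through replicate 3. The split by direction follows in part from that, so nothing is read from it. The median difference over the 72 was 0.05 on the log2 scale, against -0.01 over the genes tested.

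The count depended on the fit and on the minimum level. Without the stage term edgeR called 4 of the 72 (5.56%), against 5.99% of all genes tested and 640 of the 9796 at the minimum level. In that fit the stage difference, by which the falling genes were chosen, counts as error. DESeq2 called 7 (9.72%), against 2.70% of all genes tested and 311 of the 9796 at the minimum level. The minimum level is a mean over both replicate numbers, so a gene can reach it through the number where it is higher. The levels of such a gene lie on either side of the minimum, by a small or a large difference. Of the 72 falling genes, 9 reached it in this way, as did 197 of the 9796. Among the 63 falling genes at a mean of 5 CPM in each replicate number, 9 (14.3%) were called in edgeR's fit with the stage term, against 11.6% of the 9599 such genes. In 2 of the 63 (3.17%) the difference passed the test and was at least 2-fold, against 0.917%. No test of these shares was made.

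The widest differences were in 3 genes that reached the minimum level through replicate 3, so their differences are given as values with no test. One had 2.15 CPM at E5 and 0.861 CPM at E6 in replicate 2 but 31.5 and 14.7 CPM in replicate 3. It was 14.6-fold higher in replicate 3 at E5 and 17.1-fold higher at E6, and its log2 ratio of E6 to E5 was -0.76 in pair 2 and -1.05 in pair 3. A similar gene stood at 0.770 and 0.287 CPM in replicate 2 and at 15.4 and 5.37 CPM in replicate 3, and a further one at 1.92 and 0.287 CPM against 15.9 and 9.05 CPM. These are the 3 genes that lie far below the rest at E5 in replicate 2 in the plot of levels by library.

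In the other direction, the widest difference was that of a gene with 53.0 and 24.7 CPM in replicate 2 but 15.2 and 6.96 CPM in replicate 3, above the minimum level in each. Its replicate 2 levels were 3.49-fold higher at E5 and 3.55-fold higher at E6, with an edgeR difference of -1.81 (SE 0.16, adjusted p = 7.9e-28). That SE and p-value draw on the spread of other genes as well as on its own 4 libraries. Its E6 level in replicate 2 was above its E5 level in replicate 3, so its stages overlapped although its log2 ratios, -1.07 and -1.03, were nearly equal. Neither named gene passed the test between the replicate numbers. ENSGALG00000022295.2 had a difference of 0.08 (SE 0.17, adjusted p = 0.85) and ENSGALG00000012394.4 of 0.11 (SE 0.10, adjusted p = 0.57) by edgeR.

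**Figure D4:**
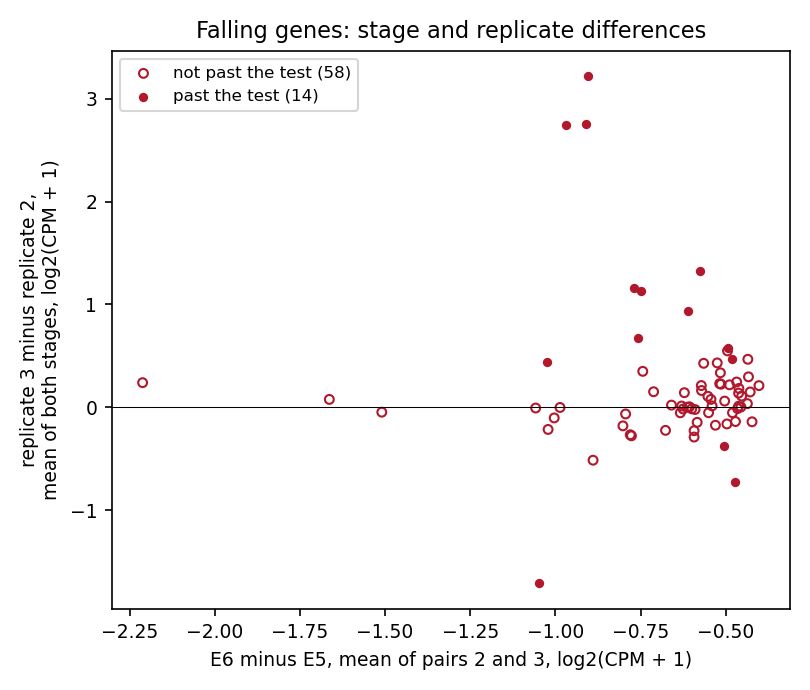
Falling genes by their mean stage difference in pairs 2 and 3 (horizontal axis) and their difference between replicate 3 and replicate 2 averaged over the stages (vertical axis), both in log2(CPM + 1). Filled points are the 14 genes past edgeR's test between the replicate numbers and open points the other 58; 3 genes, which reached the minimum level through replicate 3, lie between 2.75 and 3.22, and 1 lies at -1.71.

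The replicate 1 libraries, which the rule left out, gave few counts for the falling genes. Of the 72, 27 (37.5%) had no count in either of them, against 13.0% of the 9796 genes. Among genes with a mean under 20 CPM, the shares were 38.8% (19 falling genes) and 29.9%. Between 5 and 10 CPM the shares were 52.2% (12 of 23 falling genes) and 35.2%. They were nearly equal between 10 and 20 CPM, at 26.9% (7 of 26 falling genes) and 25.6%. Between 20 and 50 CPM they were 41.2% (7 of 17) and 13.8%. Where no read is counted, a true level of 3 counts is still possible, or 5.12 CPM at E5 and 5.89 CPM at E6 in these libraries, by counting error only. ENSGALG00000022295.2 had no count in either library, so its E5 mean of 28.0 CPM elsewhere was above what E5 replicate 1 allows. A further 36 genes had between 1 and 19 counts summed over both libraries, 17 of them lower at E6 and 19 higher. ENSGALG00000012394.4 was among these, with 13 counts at E5 and 6 at E6, or 22.2 and 11.8 CPM.

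The 9 falling genes with at least 20 counts in replicate 1 were lower at E6 in 7 cases (77.8%). The same held for 69.1% of the 2334 genes with as many counts, so most genes were lower at E6 in this pair. The median log2 ratio was -0.13 for the 9 and -0.27 for the 2334. With 1 library a stage this has no replicate check. It also turned with the scaling, since with library sizes set by the TMM method (trimmed mean of M values) 3 of the 9 (33.3%) were lower at E6, against 54.9% of the 2334.

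The 9 genes were taken for their counts in replicate 1, and 20 counts there is a higher level than most falling genes have elsewhere, so high levels in replicate 1 follow in part from that choice and their number is not a result. One stood at 487 and 473 CPM at E5 and E6 in replicate 1, against 13.0 to 21.9 CPM in the other 4 libraries. Another stood at 500 and 557 CPM against 15.2 to 26.9 CPM. The gene with the deepest fall in pair 2, from 13.9 to 1.05 CPM, had 85.4 CPM in E5 replicate 1 and 114 CPM in E6 replicate 1. A single gene of the 9 was lower in both replicate 1 libraries than in all other libraries, at 25.6 and 9.81 CPM against 58.4 to 81.6 CPM. Summed over the 72 genes, replicate 1 held 1823 CPM at E5 and 1816 CPM at E6, of which 4 genes made up 77.9% and 79.5%, so this sum does not describe the list.

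**Figure D5:**
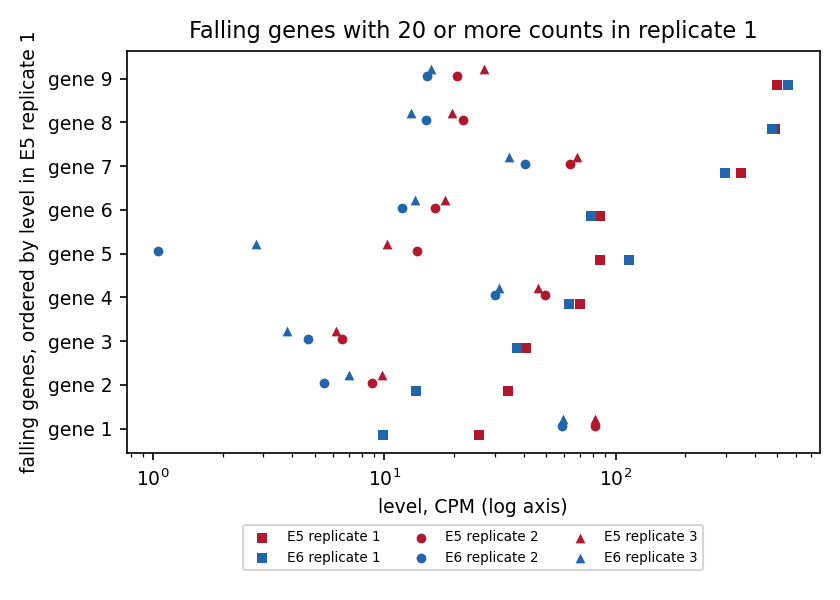
Level in CPM, on a log axis, of the 9 falling genes with at least 20 counts in replicate 1, 1 row per gene, at E5 (red) and E6 (blue) in replicate 1 (squares), 2 (circles) and 3 (triangles). In the uppermost gene the squares lie at 500 and 557 CPM and the other symbols at 15.2 to 26.9 CPM.

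The identifiers carry the version of the gene model. Version 4 made up 69.4% of the falling genes and 69.2% of the 9796, and version 1 made up 11.1% and 10.4%. Version 2 made up 9.72% (7 genes) against 3.83%, and version 3 made up 8.33% (6 genes) against 14.3%. Version numbers count revisions of a gene model in Ensembl, and say nothing of the gene's role.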

How the data were processed

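The authors deposited raw read counts per Ensembl gene identifier, 1 table a library, as whole numbers with no normalization. Tools listed in the submitters' processing notes, without roles, are TopHat 0.9, Bowtie 1.1.1, HTSeq, cutadapt 1.6, R 3.2.1 and DESeq2, with the builds mm10 and galGal4. Annotation release and strand setting were not given in the sources used here. Counts of overlapping genes and near-identical copies may therefore be affected, in a direction not known here.

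CPM was computed from library totals. Tests used edgeR 4.0.16 in R 4.3.3 (quasi-likelihood, robust, TMM, filterByExpr), with Benjamini-Hochberg adjustment. DESeq2 1.42.0 and limma 3.58.1 (voom) were alternatives. The edgeR fits were tested on simulated data. SE is the log2 difference over the square root of F. Counting intervals are exact binomial (Clopper-Pearson, 95%), and cover counting error only. They apply to the ratio without the added 1 CPM, so they are not centred on the ratios printed beside them. All 72 falling genes passed the filter on low counts.

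Over replicates 2 and 3 alone, the deviations of the E5 and E6 libraries of a replicate number from their stage means correlated at 0.57. With replicate 1 in the stage means, the correlations were 0.85, 0.82 and 0.84 for numbers 1 to 3. Replicate 1 stands apart at both stages, so those values cannot show how numbers 2 and 3 pair. The ratios and the fits with the replicate block paired libraries by number, and the stage tests without the block did not. The labels do not explain the numbers, so only the data speak for this pairing. No 2 libraries agreed within counting noise (chi-square per degree of freedom of 5.17 or more). Between the stages the value was 5.17 in replicate 3 and 7.74 in replicate 2. Between replicates 2 and 3 it was 12.1 at E5 and 16.1 at E6. By this measure, these libraries were more alike within a replicate number than within a stage. Replicates are separate pools per the series design.

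The falling genes, the contrasts and 21 gene lists were chosen with earlier results of these data known. The lists need symbols, and the reference of 25635 genes (assembly GRCg7b) held 0 Ensembl identifiers, so they were not analysed here. The rule for naming genes was the falling gene with the most negative ratio in its weaker pair and the one with the highest mean CPM.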

Additional observations from a re-analysis of the deposited data

How the results depend on the processing

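The rule found 82 and 51 genes with 0.5 and 2 CPM added, 49 at a minimum mean of 10 CPM, and 65 and 62 with TMM and DESeq2 scaling, which moved the median ratio of all genes by at most 0.02. It found 143 genes at a minimum of 1 CPM, 184 with no minimum, 162 at a threshold of -0.3 and 28 at -0.5, and 340 to 433 from a single pair. Between the stages, edgeR without the block called 0 genes. The replicate block gave 152 genes, 39 of them falling genes, with edgeR, 154 and 38 with limma-voom, and 10 and 5 with DESeq2. All 6 libraries with the block gave 28 and 9, and without it 0. Without the block, DESeq2 gave 4 and 3 and no filter on low counts gave 1 and 1. Leaving out each library gave 0 to 1 genes and 0 falling genes, the 1 without E6 replicate 2. Between replicates 3 and 2, edgeR called 1324 genes, 14 of them falling genes. Without the stage term these were 706 and 4, and with DESeq2 318 and 7, while RLE scaling, no filter and limma-voom stayed within 1.5 times. Asking for a mean of 5 CPM in each replicate number, chosen after seeing the data, left 9 of the falling genes called. Leaving out a library there leaves no residual degree of freedom, so no count was made. In replicate 1, TMM scaling lowered the share of the 9 genes that were lower at E6 from 77.8% to 33.3%. The cause of these differences was not tested. The ratios of the named genes kept their direction in all 16 values under other pseudocounts and scalings, from -1.74 to -0.43. The gene lists were not run. Depth limits replicate 1, where 1 count is 1.71 CPM at E5 and 1.96 CPM at E6, against at most 0.0994 CPM elsewhere.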

Other observations

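The 34 genes at 0.4 or higher in both pairs resembled the falling genes in level, with a median of 11.1 CPM against 14.1. Their median log2 ratio was 0.56 in pair 2 and 0.55 in pair 3. Above 100 CPM there were 3 of them, up to 532 CPM, and 1 falling gene.

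The 24 genes that were lower at E6 in pair 2 and higher in pair 3 had a median level of 8.89 CPM and reached a log2 ratio of 3.78 in pair 3. The 23 genes with the reverse pattern had a median of 8.62 CPM, and their ratios reached 1.18 in pair 2 and -1.51 in pair 3. Both sets lay lower in level than the falling genes, and no test was made of them.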
